A study of Homo sapiens with 8 samples.

Results

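The transcripts described here are those of the cyclins and kinases that carry a cell from G1 into S phase, together with CDKN1B, which encodes the inhibitor p27, and SKP2, which encodes the protein that marks p27 for destruction. They are 10 genes of the 12939 in the files (CCND1, CCND3, CDK4, CDK6, CCNE1, CCNE2, CCNA2, CDK2, CDKN1B and SKP2). They were chosen by name, with earlier results of these data known, and all 10 had a value in every library. The cells were MDA-MB-231, a triple negative breast cancer line, and every group carried GFP driven by the regulatory region of Oct4a and an RFP vector that coded for an shRNA. Scramble shRNA (3 libraries) was the control for CDH2 shRNA (3 libraries), which targets N-cadherin, and for Cx43 shRNA (2 libraries), which targets the gap junction protein connexin 43. All lines were stable transfectants selected with puromycin and kept in G418. For CDH2 shRNA the study selected a single clone for its knockdown, without saying whether clone means a cell clone or an shRNA construct. The cancer stem cells (CSCs) were sorted as the cells brightest for both GFP and RFP and rested overnight before total RNA was taken. No source used here says that the libraries of a group came from separate cultures, so the p-values measure only the spread between these libraries.

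D cyclins (CCND1, CCND3) activate CDK4 and CDK6, and these kinases begin the phosphorylation of the retinoblastoma protein, RB. E cyclins (CCNE1, CCNE2) and then cyclin A2 (CCNA2) activate CDK2, which completes that step and drives DNA replication. The inhibitor p27 binds the CDK2 complexes, and SKP2 is the F-box subunit of the SCF ubiquitin ligase that recognises phosphorylated p27. Much of this control acts on protein, through phosphorylation and degradation, and the values here are RNA. In bulk RNA, fewer cells of a type and less RNA per cell cannot be told apart.

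The values were log2(CPM + 1), where CPM is the count scaled to the library's total, and a log2 fold change below is a difference of such values, which understates the change of low genes. Without counts in the files, the sequencing depth is unknown. Of the MDA-MB-231 markers, VIM, CD44, AXL, CAV1 and TGFBI, which should be present, lay between 6.35 and 9.81. EPCAM, which should be low, lay between 2.21 and 2.75. ERBB2, also on the low list, lay between 5.16 and 5.52, above EPCAM, though a triple negative line has little of its protein. These marker levels are not corrected for transcript length. POU5F1, the gene of Oct4, lay between 3.57 and 3.85, with no unsorted cells to set it against. ESR1, PGR, CDH1 and CLDN3 were not analysed here. The transcripts that the shRNAs target were not analysed here, so the labels were not checked on them. The 13 mitochondrial genes took 0.594% to 1.01% of the summed CPM in scramble, 1.16% to 2.03% in CDH2 shRNA and 1.25% to 2.36% in Cx43 shRNA, and the part of this difference in the results below was not tested. The effect of the sequencing runs had been taken out before deposit, after which, in every gene, deviations from group means cancelled to within 1e-04 inside each replicate number. Spread shared by libraries of a number is therefore no longer in the values.

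CCNE2 and SKP2 were the members that passed the test, and they were higher in both knockdowns. CCNE2 rose by 0.90 on the log2 scale (SE 0.08) with CDH2 shRNA and by 0.82 (SE 0.10) with Cx43 shRNA, and SKP2 rose by 0.82 (SE 0.08) and 0.64 (SE 0.09). These are folds of 1.86 and 1.76 for CCNE2 and of 1.77 and 1.56 for SKP2. In limma, with group and replicate number in the model and p-values adjusted over all genes, 2 of the 10 members were higher with CDH2 shRNA at an adjusted p under 0.05, against a background of 7.29% of all genes, and 0 were lower, against 6.98%. With the fold change of at least 1.66 that the study's methods ask for, the same 2 members were counted as higher against 0.866% of all genes, and 0 as lower against 1.2%. With Cx43 shRNA, 2 of 10 were higher (background 0.417%) and 0 lower (0.788%). At the fold change of 1.5 used for that knockdown the count stayed at 2 higher (0.402%) and 0 lower (0.781%). The members were chosen with earlier results of these data known, so setting their counts beside these shares is no test. The run correction also left fewer directions of spread than the model counts. With that smaller count CCNE2 and SKP2 passed in limma with CDH2 shRNA (adjusted p = 0.0248 and 0.03). Neither did with Cx43 shRNA (adjusted p = 0.0752 and 0.146).

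**Figure D1:**
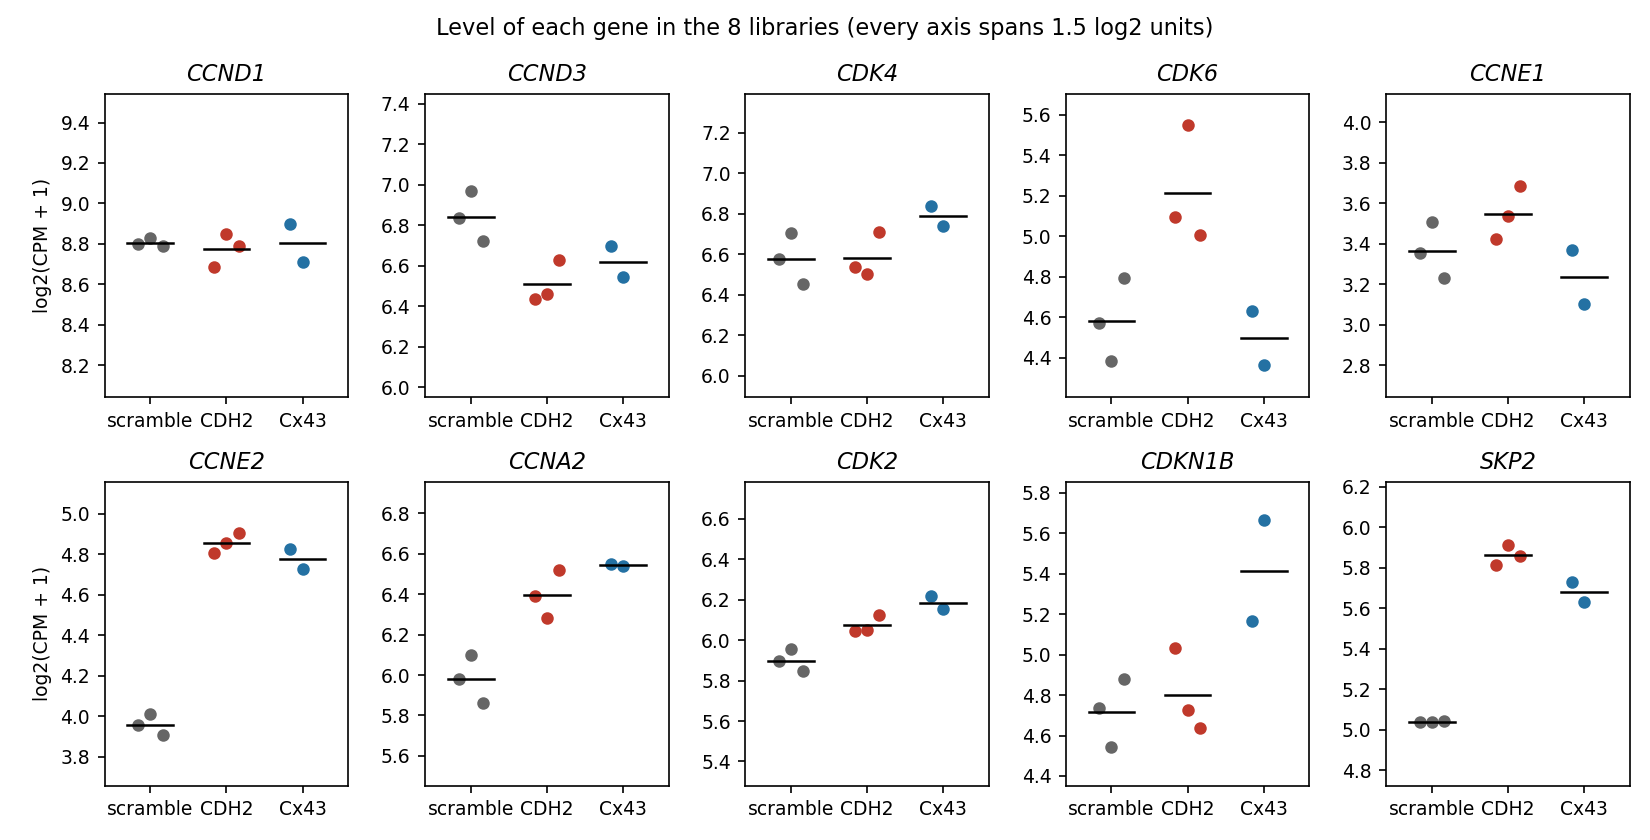
Level of each gene in log2(CPM + 1) (y axes, each spanning 1.5 units with its own start) in scramble, CDH2 shRNA and Cx43 shRNA libraries. Points are libraries and bars are group means; CCNE2 and SKP2 lie in both knockdowns wholly above scramble, while the points of CCND1 overlap between all groups.

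Levels of different members were compared only per length, as CPM per kilobase of the canonical GENCODE v44 transcript. The order rests on this length, which for SKP2 is 3715 nt, against 17377 nt over all its annotated exons. In scramble CCND1 was highest, with a median of 105 CPM per kilobase (104 to 107 over the 3 libraries). CCND3 (56, 51.6 to 61.2) and CDK4 (50.6, 46.4 to 55.4) followed and overlapped each other. CDK2 (26.2, 25.2 to 27.2) and CCNA2 (22.6, 20.8 to 24.6) came next and did not overlap. CDKN1B (10.6, 9.24 to 11.8) was above SKP2 (8.58, 8.56 to 8.61) in each scramble library. CCNE2 (5.43, 5.25 to 5.65) and CCNE1 (4.73, 4.28 to 5.31) overlapped, and CDK6 was lowest (1.95, 1.71 to 2.29), over a canonical transcript of 11663 nt. In CDH2 shRNA libraries SKP2 (15.3, 14.9 to 15.9) stood above CDKN1B (10.6, 9.92 to 13.1). In Cx43 shRNA libraries the order was that of scramble, with CDKN1B (17.5, 14.5 to 20.6) above SKP2 (13.5, 13.1 to 14.0). In both knockdowns the per-kilobase range of CCNE2 lay above that of CCNE1, at 10.1 to 10.8 against 4.97 to 6.06 with CDH2 shRNA and 9.52 to 10.2 against 3.88 to 4.76 with Cx43 shRNA.

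D cyclins and their kinases. No member of this arm passed the test in any comparison. CCND1 lies on chromosome 11 (hg38 69641156 to 69654474, plus strand). Its log2 level was 8.80, 8.83 and 8.79 in scramble libraries 1, 2 and 3, 8.69, 8.85 and 8.79 in CDH2 shRNA and 8.90 and 8.71 in Cx43 shRNA. The groups overlapped, and the fitted change was -0.03 (95% interval -0.26 to 0.20, adjusted p = 0.819) with CDH2 shRNA and 0.00 (-0.27 to 0.27, adjusted p = 0.994) with Cx43 shRNA. So a change of CCND1 RNA beyond 0.27 in size lay outside both intervals as computed. The run correction, however, left fewer directions of spread than the model counts. With that smaller count the SEs were 0.15 and 0.17, against 0.09 and 0.11 here, and the intervals would be wider.

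CCND3 (chromosome 6, 41934934 to 42050357, minus strand) encodes cyclin D3. It was at 6.84, 6.97 and 6.72 in scramble, 6.43, 6.46 and 6.63 in CDH2 shRNA and 6.70 and 6.54 in Cx43 shRNA. Every knockdown library was below every scramble library, as were 24.8% of all genes with CDH2 shRNA and 21.4% with Cx43 shRNA. The changes were -0.33 (SE 0.11, adjusted p = 0.0888) and -0.22 (SE 0.13, adjusted p = 0.375). CDH2 shRNA replicate 3 and scramble replicate 3 are the only libraries of their number, so leaving out either gave the same fit. In that fit the change of CCND3 with CDH2 shRNA was -0.45 (SE 0.12, adjusted p = 0.0102), with an SE no smaller than that with all libraries. With each other library left out it lay between -0.34 and -0.23, with adjusted p from 0.128 to 0.362, and with a length and GC correction it was -0.16 (adjusted p = 0.195). The change with Cx43 shRNA ranged from -0.34 to -0.10 over the omitted libraries and passed the test in none of these fits.

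CDK4 and CDK6 are the kinases that the D cyclins activate. CDK4 (chromosome 12, 57747727 to 57756013, minus strand) was at 6.57, 6.70 and 6.45 in scramble, 6.54, 6.50 and 6.71 in CDH2 shRNA and 6.84 and 6.74 in Cx43 shRNA. Its changes were 0.01 (SE 0.11, adjusted p = 0.975) and 0.21 (SE 0.13, adjusted p = 0.391), and both Cx43 shRNA libraries were above all scramble libraries. CDK6 (chromosome 7, 92604921 to 92836573, minus strand) was at 4.57, 4.39 and 4.79 in scramble, 5.10, 5.55 and 5.01 in CDH2 shRNA and 4.63 and 4.36 in Cx43 shRNA. The CDH2 shRNA libraries were all above the others, with replicate 2 farthest, and the Cx43 shRNA libraries overlapped scramble. The change of CDK6 with CDH2 shRNA was 0.63 (SE 0.19, adjusted p = 0.0764), a fold of 1.55, and with Cx43 shRNA -0.09 (SE 0.23, adjusted p = 0.855). Leaving out CDH2 shRNA replicate 3 or scramble replicate 3 (the same fit) brought the first to 0.84 (adjusted p = 0.00177). Leaving out CDH2 shRNA replicate 2 brought it to 0.37 (adjusted p = 0.13).

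CCND2, a D cyclin that is not among the 10 members and was on the list of other cyclins, moved in the Cx43 shRNA libraries. It was at 5.28, 5.37 and 5.22 in scramble, 5.10, 5.32 and 5.31 in CDH2 shRNA and 6.76 and 6.46 in Cx43 shRNA. The change was 1.32 with Cx43 shRNA (adjusted p = 0.0349) and -0.04 with CDH2 shRNA (adjusted p = 0.82). The difference between the knockdowns, -1.36, did not pass the test (adjusted p = 0.115).

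**Figure D2:**
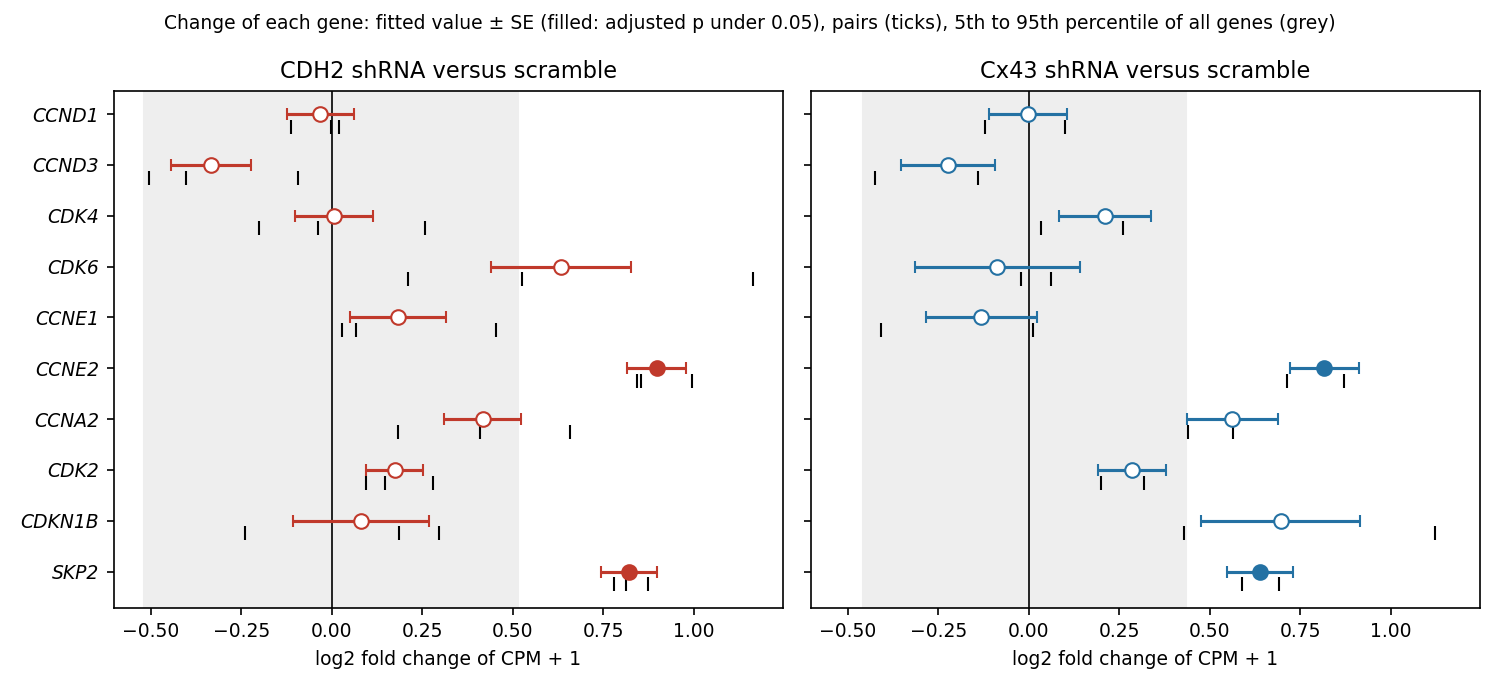
Log2 fold change of CPM + 1 (x axes) of each gene with CDH2 shRNA (left) and Cx43 shRNA (right) versus scramble. Circles with bars are limma values ± SE, filled where the adjusted p was under 0.05; ticks below them are differences from the scramble library of the same replicate number, and grey spans the 5th to 95th percentile of all genes. CCNE2 and SKP2 are the filled circles and lie right of the grey band in both panels.

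E cyclins. CCNE2 (chromosome 8, minus strand) encodes cyclin E2. It was at 3.96, 4.01 and 3.91 in scramble libraries 1, 2 and 3, at 4.81, 4.85 and 4.90 in CDH2 shRNA and at 4.83 and 4.73 in Cx43 shRNA. On the linear scale this is 14.0 to 15.1 CPM in scramble, 27 to 29 in CDH2 shRNA and 25.4 and 27.4 in Cx43 shRNA. All 5 knockdown libraries stood above all 3 scramble libraries, and the knockdowns overlapped each other. The spread within groups left after the run correction was small beside these gaps. The SDs were 0.05 (scramble, n = 3), 0.05 (CDH2 shRNA, n = 3) and 0.07 (Cx43 shRNA, n = 2). The adjusted p of limma was 0.016 with CDH2 shRNA and 0.0354 with Cx43 shRNA, and the change ranked above that of 99.5% and 99.4% of all genes. Against the scramble library of the same number, CCNE2 was higher by 0.85, 0.84 and 0.99 with CDH2 shRNA and by 0.87 and 0.71 with Cx43 shRNA.

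The calls for CCNE2 depended on which libraries were in the model. Its direction turned in none of the 17 alternatives, though several of these cannot change the estimate. The adjusted p with CDH2 shRNA was 0.0836 without CDH2 shRNA replicate 1, 0.0751 without CDH2 shRNA replicate 2, 0.0561 without either Cx43 shRNA replicate and 0.0927 without scramble replicate 1. With Cx43 shRNA it was 0.0841 and 0.0688 without CDH2 shRNA replicates 1 and 2, 0.254 and 0.334 without Cx43 shRNA replicates 1 and 2, and 0.268 without scramble replicate 1. It was also 0.0561 with CDH2 shRNA when only the groups compared were in the model, and with Cx43 shRNA 0.0536 when the lowest genes were left out and 0.0752 when residual degrees of freedom were counted from the residuals. Other omissions lowered it, although the SE of the change was then larger than with all libraries. Without either library of number 3 it was 0.000398 with CDH2 shRNA and 0.000926 with Cx43 shRNA. Without scramble replicate 2 it was 0.000694 and 0.00578. The change itself ranged over the omitted libraries from 0.85 to 0.94 with CDH2 shRNA and from 0.74 to 0.89 with Cx43 shRNA.

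CCNE1 (chromosome 19, 29811991 to 29824312, plus strand) encodes cyclin E1, which binds the same kinase. It was at 3.36, 3.51 and 3.23 in scramble, 3.42, 3.54 and 3.68 in CDH2 shRNA and 3.37 and 3.10 in Cx43 shRNA. Both knockdowns overlapped scramble. The changes were 0.18 (95% interval -0.14 to 0.51, adjusted p = 0.348) and -0.13 (-0.51 to 0.25, adjusted p = 0.661). A rise as large as the 0.90 or 0.82 of CCNE2 lay outside both intervals as computed. With the smaller count of directions left by the run correction, the SEs were 0.16 and 0.19 against 0.13 and 0.15, and the intervals would be wider. CCNE1 was low in these cells, between 7.58 and 11.8 CPM, where the added 1 reduces a change somewhat. With a pseudocount of 0.1 on the CPM the change of CCNE1 kept its sign in both knockdowns and passed the test in neither.

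Cyclin A2 and CDK2. CCNA2 (chromosome 4, 121816444 to 121823883, minus strand) was at 5.98, 6.10 and 5.86 in scramble, 6.39, 6.28 and 6.52 in CDH2 shRNA and 6.55 and 6.54 in Cx43 shRNA. All knockdown libraries were above all scramble libraries. The changes were 0.42 (SE 0.11, adjusted p = 0.0538) and 0.56 (SE 0.12, adjusted p = 0.0932) and did not pass the test. Without scramble replicate 2 they were 0.51 (adjusted p = 0.0229) and 0.68 (adjusted p = 0.0262). Without CDH2 shRNA replicate 3 or scramble replicate 3 (the same fit) the change with Cx43 shRNA was 0.50 (adjusted p = 0.0124), smaller than with all libraries. In that fit the change with CDH2 shRNA was 0.30 (adjusted p = 0.0582). Leaving out any other library took neither change of CCNA2 past the test, and the highest adjusted p were 0.275 with CDH2 shRNA and 0.597 with Cx43 shRNA, both without scramble replicate 1.

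CDK2 (chromosome 12, 55966781 to 55972789, plus strand), the kinase of the E and A cyclins, was at 5.90, 5.95 and 5.85 in scramble, 6.04, 6.05 and 6.13 in CDH2 shRNA and 6.22 and 6.15 in Cx43 shRNA. The groups again did not overlap, yet the changes were small, at 0.17 (SE 0.08, adjusted p = 0.166) and 0.29 (SE 0.09, adjusted p = 0.166). Groups that do not overlap were common in these files. With CDH2 shRNA, 5 of the 10 members had every library above scramble (CDK6, CCNE2, CCNA2, CDK2 and SKP2), against 27.1% of all genes, and with Cx43 shRNA 6 did (CDK4, CCNE2, CCNA2, CDK2, CDKN1B and SKP2), against 31.4%. CCND3 was the only member with every library below scramble in either knockdown.

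SKP2 and CDKN1B. SKP2 (chromosome 5, 36151989 to 36196849, plus strand) was at 5.04 in each of the 3 scramble libraries, at 5.82, 5.91 and 5.86 in CDH2 shRNA and at 5.73 and 5.63 in Cx43 shRNA. On the linear scale this is 31.8 to 32.0 CPM in scramble, 55.3 to 59.2 in CDH2 shRNA and 48.5 and 52.0 in Cx43 shRNA. The SD over the scramble libraries was 0.0043 (n = 3), against 0.05 in CDH2 shRNA (n = 3) and 0.07 in Cx43 shRNA (n = 2). These SDs are of values after the run correction and leave out spread shared by libraries of a number. The knockdowns did not overlap scramble, and every CDH2 shRNA library was above both Cx43 shRNA libraries. The adjusted p was 0.016 with CDH2 shRNA and 0.0445 with Cx43 shRNA, and the change ranked above that of 99.3% and 98.7% of all genes. Against the scramble library of the same number the differences were 0.78, 0.87 and 0.81 with CDH2 shRNA and 0.69 and 0.59 with Cx43 shRNA.

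The calls for SKP2 were lost without the same libraries as those for CCNE2. With CDH2 shRNA the adjusted p of SKP2 was 0.0836 and 0.0751 without CDH2 shRNA replicates 1 and 2, 0.0561 without either Cx43 shRNA replicate and 0.105 without scramble replicate 1. With Cx43 shRNA it was 0.119 and 0.0701 without CDH2 shRNA replicates 1 and 2, 0.291 and 0.341 without Cx43 shRNA replicates 1 and 2, and 0.441 without scramble replicate 1. It was 0.0561 with CDH2 shRNA when only the groups compared were in the model, and with Cx43 shRNA 0.0596 without the lowest genes and 0.146 with residual degrees of freedom from the residuals. Without either library of number 3 it was 0.000474 with CDH2 shRNA and 0.00318 with Cx43 shRNA. Without scramble replicate 2 it was 0.00168 and 0.0326. These lower values again came with larger SEs than those with all libraries. The change stayed between 0.78 and 0.86 with CDH2 shRNA and between 0.57 and 0.71 with Cx43 shRNA when a library was left out.

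CDKN1B (chromosome 12, 12685498 to 12722369, plus strand), the gene of p27, was at 4.74, 4.54 and 4.88 in scramble, 5.03, 4.73 and 4.64 in CDH2 shRNA and 5.17 and 5.66 in Cx43 shRNA. The CDH2 shRNA libraries overlapped scramble and changed by 0.08 (SE 0.19, adjusted p = 0.779). Both Cx43 shRNA libraries were above every other library, with a change of 0.70 (SE 0.22, adjusted p = 0.157) that did not pass the test. The Cx43 shRNA libraries lay far apart (SD 0.35, n = 2), and the change was 0.32 (adjusted p = 0.61) without replicate 2 and 1.07 (adjusted p = 0.262) without replicate 1. Without CDH2 shRNA replicate 3 or scramble replicate 3 (the same fit) it was 0.78 (adjusted p = 0.00786).

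The windows around the RefSeq start sites (250 bases before to 50 after, GRCh38.p14) are shown for SKP2, CDKN1B and CCNE1, since the comparisons set the member that rose against its counterpart in each pair. Capitals mark the letters CCAAT or their reverse complement, the box that the factor NF-Y binds.
SKP2, chr5:36151861-36152160, plus strand: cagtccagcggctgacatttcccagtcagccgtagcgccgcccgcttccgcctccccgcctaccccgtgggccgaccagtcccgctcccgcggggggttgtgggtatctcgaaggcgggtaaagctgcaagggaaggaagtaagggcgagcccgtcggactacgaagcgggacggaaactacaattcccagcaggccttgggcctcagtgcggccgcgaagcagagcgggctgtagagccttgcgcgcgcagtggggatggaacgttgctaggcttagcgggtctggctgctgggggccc
CDKN1B, chr12:12717118-12717417, plus strand: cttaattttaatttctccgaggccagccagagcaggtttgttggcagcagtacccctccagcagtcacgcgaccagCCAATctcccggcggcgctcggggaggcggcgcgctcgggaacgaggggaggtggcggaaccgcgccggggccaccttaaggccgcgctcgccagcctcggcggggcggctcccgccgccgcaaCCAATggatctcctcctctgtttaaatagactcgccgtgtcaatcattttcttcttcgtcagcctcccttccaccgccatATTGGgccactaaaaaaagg
CCNE1, chr19:29811741-29812040, plus strand: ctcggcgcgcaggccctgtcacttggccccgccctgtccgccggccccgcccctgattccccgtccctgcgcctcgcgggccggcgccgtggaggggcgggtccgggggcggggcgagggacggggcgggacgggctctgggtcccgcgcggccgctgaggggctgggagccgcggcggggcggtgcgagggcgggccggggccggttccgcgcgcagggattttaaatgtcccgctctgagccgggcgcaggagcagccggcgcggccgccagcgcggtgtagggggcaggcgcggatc
The CDKN1B window held CCAAT on either strand at -174, -50 and 31, counted from the start site, and the other windows shown held none. CCAAT was present in 34.6% of 34796 RefSeq windows of the same length. The letters TTTGAA, the cell-cycle element bound by MuvB complexes, were in 15.2% of windows. The letters TTTCCCGC, TTTCGCGC, TTTGCCGC or TTTGGCGC, the consensus of the E2F factors that act downstream of RB, were in 3.3% of windows, all on both strands. Neither of these was in a window of the 7 members that had one. No window of CCNE2, CCND1 or CDK2 was searched, so CCNE1 is shown without CCNE2. Only these exact letters were sought, so variants of an element would be missed. CCAAT also stood in the CCNA2 window, at -56, and in 2 of the 3 CCND3 windows. A match or its absence describes the letters of a window and says nothing of a factor's binding.

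The differences between paired genes were then taken within each library, which cancels any shift common to both genes. CCNE2 minus CCNE1 was 0.60, 0.50 and 0.68 in scramble, 1.39, 1.32 and 1.22 in CDH2 shRNA and 1.46 and 1.62 in Cx43 shRNA. All 5 knockdown libraries lay above all scramble libraries. The difference rose by 0.71 with CDH2 shRNA and by 0.95 with Cx43 shRNA when it was tested as a feature of the limma model (SE 0.10 and 0.12, adjusted p = 0.0208 and 0.0372), a test added after the values were seen. Exact two-sided permutation tests over the libraries gave p = 0.1 with CDH2 shRNA, p = 0.2 with Cx43 shRNA and p = 0.0357 for both knockdowns together, each of which is the smallest p that its number of libraries allows. Adjusted over the 8 permutation tests they were 0.267 each. These tests treat libraries as exchangeable, although the run correction ties together those of a replicate number. The joint test also pools the CDH2 shRNA and Cx43 shRNA lines as if they were replicates of a single condition.

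SKP2 minus CDKN1B was 0.30, 0.50 and 0.17 in scramble, 0.79, 1.19 and 1.22 in CDH2 shRNA and 0.56 and -0.03 in Cx43 shRNA. The CDH2 shRNA libraries were above all the others, and the Cx43 shRNA libraries spanned the scramble range. The change was 0.74 with CDH2 shRNA (limma SE 0.21, adjusted p = 0.0663; exact permutation p = 0.1, the smallest possible). With Cx43 shRNA it was -0.06 (limma SE 0.25, adjusted p = 0.917; exact permutation p = 1.0). Without Cx43 shRNA replicate 2 the latter was 0.24 and without scramble replicate 2 it was 0.03, so its sign rested on these libraries. For both knockdowns together the exact permutation p was 0.25, with the same limits. SKP2 minus CDKN1B differed by 0.80 between CDH2 shRNA and Cx43 shRNA (exact permutation p = 0.2, the smallest possible, and limma adjusted p = 0.181), and CCNE2 minus CCNE1 by -0.23 (exact permutation p = 0.2 and limma adjusted p = 0.323).

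**Figure D3:**
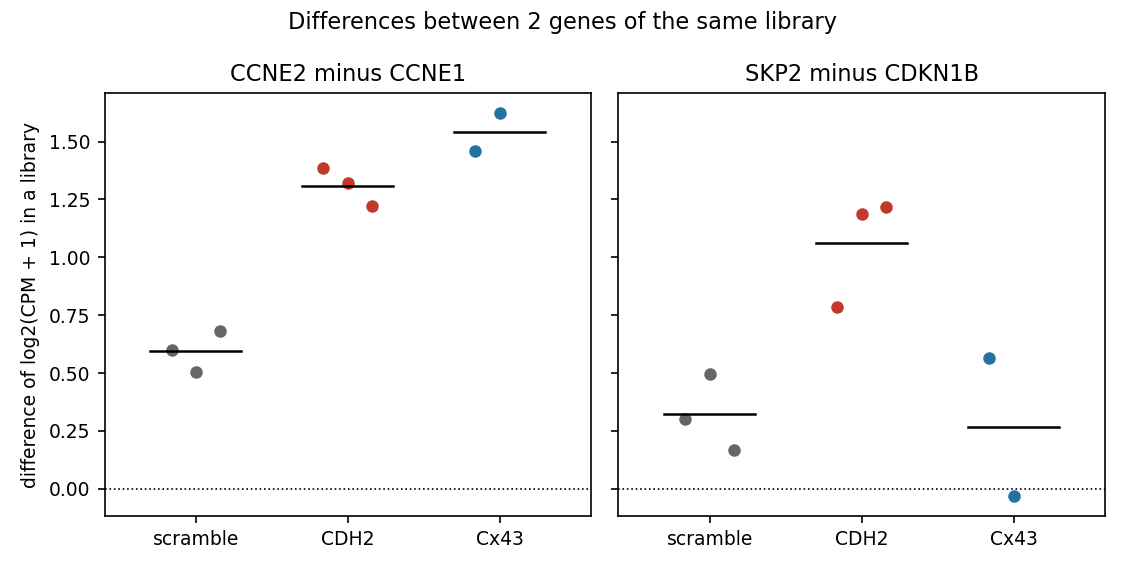
Difference of log2(CPM + 1) between CCNE2 and CCNE1 (left) and between SKP2 and CDKN1B (right) in each library (y axis), by shRNA. Points are libraries and bars are group means; CCNE2 minus CCNE1 is above scramble in both knockdowns, and SKP2 minus CDKN1B is above scramble in every CDH2 shRNA library, while the Cx43 shRNA points span the scramble range.

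CDH2 shRNA and Cx43 shRNA were also compared directly, since the comparisons with scramble share their control libraries. At an adjusted p under 0.05, 0 members and 0.0% of all genes differed, while 2591 genes, or 20.0%, had an unadjusted p under 0.05. Of the 10 members 2 were among these, the share of all genes, namely CDK6, higher in CDH2 shRNA by 0.72 (SE 0.23, adjusted p = 0.184), and CDKN1B, lower in CDH2 shRNA (-0.62, SE 0.22, adjusted p = 0.21). Without CDH2 shRNA replicate 3 or scramble replicate 3 (the same fit), CDK6 differed by 0.82 (adjusted p = 0.00771) and CDKN1B by -0.54 (adjusted p = 0.0429). Without scramble replicate 2 CDK6 differed by 0.76 (adjusted p = 0.0185). With the other libraries left out in turn neither passed: CDK6 was at 0.39 (adjusted p = 0.354) without CDH2 shRNA replicate 2, and CDKN1B at -0.24 (adjusted p = 0.742) without Cx43 shRNA replicate 2 and -0.99 (adjusted p = 0.31) without Cx43 shRNA replicate 1. A length and GC correction gave 0.46 for CDK6 (adjusted p = 0.182). CCNE2 differed by 0.08 (95% interval -0.15 to 0.31) and SKP2 by 0.18 (-0.04 to 0.41). All CDH2 shRNA libraries were above both Cx43 shRNA libraries for CDK6, CCNE1 and SKP2 (3 of 10, against 21.8% of all genes) and below them for CDK4, CCNA2, CDK2 and CDKN1B (4 of 10, against 29.1%).

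Exons of most members overlap those of a gene on the opposite strand, and no source used here says whether the counting used strand. CCNE2 exons overlap those of INTS8, an Integrator subunit, over 1629 nt, and SKP2 exons overlap those of NADK2, a mitochondrial NAD kinase, over 365 nt. INTS8 changed by 0.06 with CDH2 shRNA (adjusted p = 0.6345) and by 0.23 with Cx43 shRNA (adjusted p = 0.2349), and NADK2 by 0.23 (adjusted p = 0.1845) and 0.26 (adjusted p = 0.305). CCNE2 exons also overlap those of another gene, which had no value here. No reads were examined, so the part of overlapping transcripts in the changes of CCNE2 and SKP2 was not tested. CDK4 overlaps TSPAN31 over 1369 nt and CCNA2 overlaps EXOSC9 over 254 nt, and neither partner passed the test. CCNE1 and CDKN1B overlap no annotated exon of another gene.

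The rest of the pathway was taken from 9 lists, described by their counts and medians beside those of all genes, whose median change was 0.01 with CDH2 shRNA and 0.04 with Cx43 shRNA. The counts below are to be read against the 7.29% of all genes that were higher and the 6.98% that were lower with CDH2 shRNA at an adjusted p under 0.05, and the 0.417% and 0.788% with Cx43 shRNA. The RB and E2F family, through which the G1 kinases act on transcription, had the highest median of the lists, 0.36 with CDH2 shRNA and 0.46 with Cx43 shRNA. With CDH2 shRNA 5 of its 13 genes were higher, against 7.29% of all genes, and 0 lower. E2F7 (0.82, adjusted p = 0.021) and E2F8 (0.79, adjusted p = 0.02), repressors of the family, rose as did the activator E2F3 (0.66, adjusted p = 0.021) and RBL1, the gene of p107 (0.57, adjusted p = 0.047). E2F1 did not pass the test (-0.22, adjusted p = 0.356). With Cx43 shRNA 0 of 13 passed in either direction, with E2F8 at 0.72 (adjusted p = 0.051) and E2F7 at 0.39 (adjusted p = 0.18). In the same comparison E2F3 was at 0.48 (adjusted p = 0.091) and RBL1 at 0.50 (adjusted p = 0.157).

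Of the 10 proliferation markers, 2 were higher with CDH2 shRNA and 0 with Cx43 shRNA, and 0 were lower. MKI67, the gene of the Ki-67 antigen, was at 8.19 to 8.41 in scramble, 8.77 to 9.03 in CDH2 shRNA and 8.05 and 8.39 in Cx43 shRNA. It rose by 0.63 with CDH2 shRNA (adjusted p = 0.039) and was at -0.08 with Cx43 shRNA (adjusted p = 0.811), and the difference between the knockdowns, 0.71, did not pass the test (adjusted p = 0.138). BUB1, a spindle checkpoint kinase, rose by 0.48 with CDH2 shRNA (adjusted p = 0.025) and was at 0.37 with Cx43 shRNA (adjusted p = 0.11). CCNB1, the mitotic cyclin B1, was at -0.06 (adjusted p = 0.795) and 0.06 (adjusted p = 0.867). The medians of this list were 0.26 and 0.27. The mean level of the 10 markers was 7.01 to 7.31 in scramble, 7.29 to 7.52 in CDH2 shRNA and 7.27 to 7.45 in Cx43 shRNA, and the part of this in the members' values was not tested.

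Among the 29 other cyclins and CDKs analysed, 4 were higher and 3 lower with CDH2 shRNA (7.29% and 6.98% of all genes), and 1 was higher (CCND2) and 1 lower (CCNK) with Cx43 shRNA (0.417% and 0.788%). CDK18 fell by 0.85 with CDH2 shRNA (adjusted p = 0.026), and CCNT2, a cyclin of the transcription elongation kinase CDK9, rose by 0.60 (adjusted p = 0.036). With Cx43 shRNA CDK18 was at -0.28 (adjusted p = 0.389) and CCNT2 at 0.22 (adjusted p = 0.417). CDK7, the kinase that activates other CDKs, fell by 0.34 with CDH2 shRNA (adjusted p = 0.04) and was at -0.50 with Cx43 shRNA (adjusted p = 0.064). It was the only one of 11 CDK activating and inactivating enzymes to pass in CDH2 shRNA, with 0 of 11 in Cx43 shRNA. Of the 5 other CDK inhibitors analysed, 0 passed in either knockdown, and CDKN1A, the gene of p21, was at -0.21 (adjusted p = 0.441) and -0.33 (adjusted p = 0.423). Medians of the inhibitors were -0.21 and -0.14.

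Of the 20 genes analysed for the SCF ligase, SKP2's partners and its turnover, 2 were higher and 0 lower with CDH2 shRNA, a count near the 7.29% of all genes that were higher, and 0 passed with Cx43 shRNA. The medians were -0.04 and 0.05. The core subunits SKP1 (-0.27, adjusted p = 0.084), CUL1 (-0.02, adjusted p = 0.873) and RBX1 (-0.47, adjusted p = 0.057) did not pass with CDH2 shRNA, nor did CKS1B, the cofactor that SKP2 needs to bind p27 (-0.23, adjusted p = 0.406). With Cx43 shRNA SKP1 was at -0.02, CUL1 at -0.11, RBX1 at 0.09 and CKS1B at 0.09, with adjusted p from 0.534 to 0.919. The genes that rose with CDH2 shRNA were FBXO5, the gene of the APC/C inhibitor EMI1 (0.50, adjusted p = 0.025), and the deubiquitinase USP10 (0.39, adjusted p = 0.035). With Cx43 shRNA FBXO5 was at 0.54 (adjusted p = 0.067) and USP10 at 0.27 (adjusted p = 0.177). FBXW7, the F-box protein that recognises cyclin E, was at 0.04 (adjusted p = 0.799) and 0.11 (adjusted p = 0.638).

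Of 11 genes for p27 turnover and transport outside SCF-SKP2, DTL, a substrate receptor of CUL4 ligases (0.55, adjusted p = 0.021), and the nuclear exporter XPO1 (0.33, adjusted p = 0.045) were higher with CDH2 shRNA and 0 lower. None passed with Cx43 shRNA (0 of 11), where DTL was at 0.32 (adjusted p = 0.138) and XPO1 at 0.17 (adjusted p = 0.344). Medians of the list were 0.07 and 0.17. Of 16 transcription factors of CDKN1B, SKP2 and the D cyclins, 2 were higher with CDH2 shRNA, namely NFYA, an NF-Y subunit (0.51, adjusted p = 0.022), and TCF7L2 (0.44, adjusted p = 0.042). With Cx43 shRNA 0 passed, and NFYA was at 0.13 (adjusted p = 0.424) and TCF7L2 at 0.16 (adjusted p = 0.48). FOXM1, an activator of SKP2, was at 0.17 (adjusted p = 0.439) and 0.09 (adjusted p = 0.81), and the medians of the list were 0.22 and 0.15. Of 8 other SKP2 substrates, ORC1, a subunit of the origin recognition complex, was higher with CDH2 shRNA (0.52, adjusted p = 0.035), and it was at 0.54 with Cx43 shRNA (adjusted p = 0.097). The medians were 0.10 and 0.02.

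**Figure D4:**
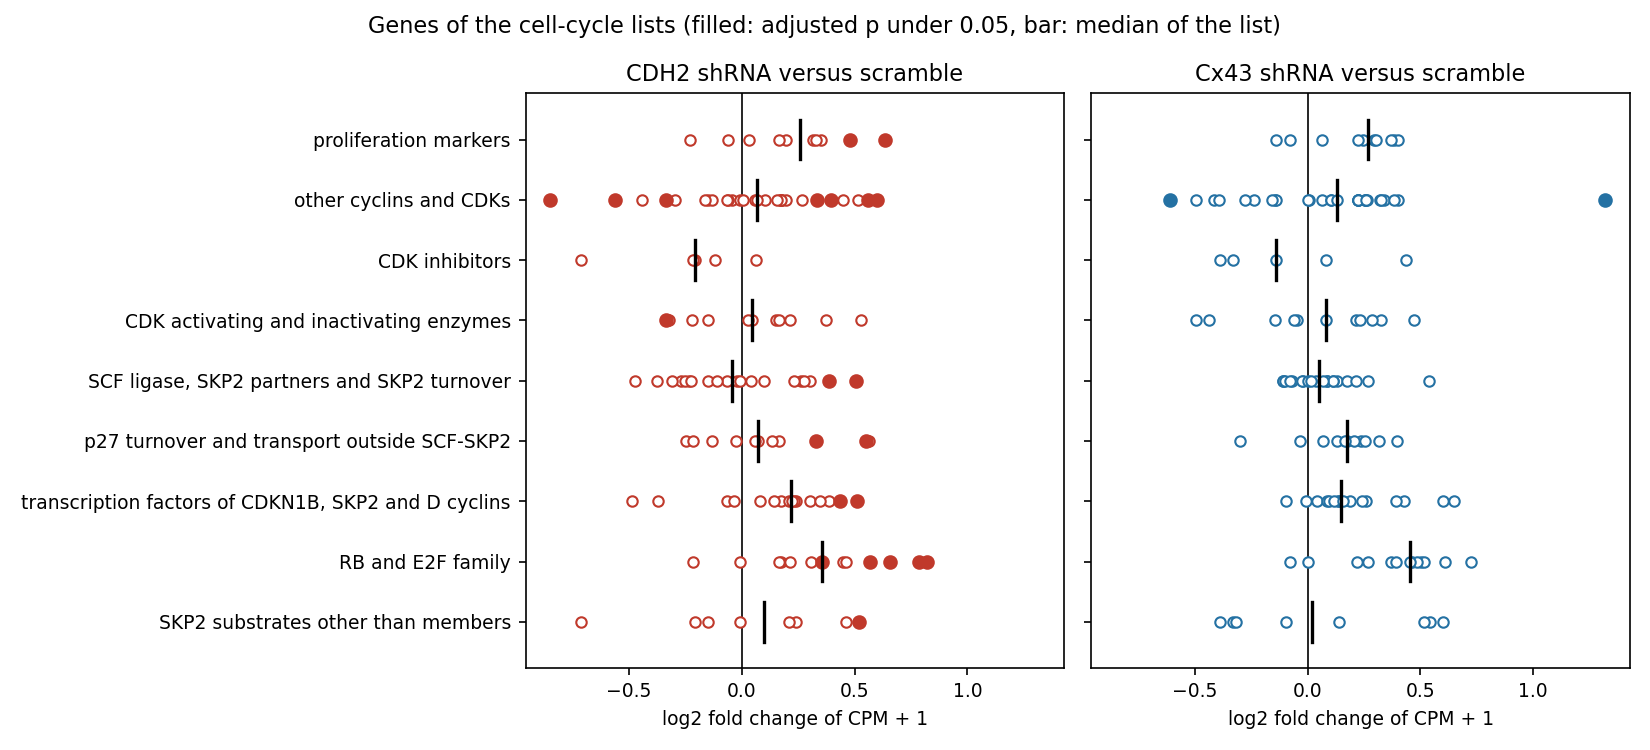
Log2 fold change of CPM + 1 (x axes) of the genes of 9 lists (rows) with CDH2 shRNA (left) and Cx43 shRNA (right) versus scramble. Each circle is a gene, filled where the adjusted p of limma was under 0.05, and the black bar is the median of the list; the bar of the RB and E2F family stands farthest right in both panels, at 0.36 and 0.46.

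The genes whose levels most resembled those of SKP2 over the 8 libraries were TNPO2 (Pearson r = 0.9997), ZNF639 and FBXO45 (0.9991 each) and AGFG1 (0.9989), and for CCNE2 they were ACTB (0.9996), HTR7 (0.9992), PLK4 (0.9983), CHRAC1 (0.9982) and SMC3 (0.9979). These values are a description, since the 8 libraries form 3 groups and share the run correction. The size of the change differed widely among them. TNPO2, which encodes a nuclear import receptor, changed by 0.52 and 0.39 with CDH2 and Cx43 shRNA, PLK4, the kinase of centriole duplication, by 0.49 and 0.46, and ACTB, beta-actin, by 0.11 and 0.10. Of the genes named here, all but ACTB and SMC3 had an adjusted p under 0.05 with CDH2 shRNA and none with Cx43 shRNA.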

How the data were processed

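Total RNA of sorted CSCs was sequenced after ribosomal RNA depletion, in 8 libraries. The authors aligned reads to hg38 in Partek Flow with STAR (2.6.1 in the submitters' processing notes), quantified by expectation-maximization, removed a low-quality sample, deposited log2(CPM + 1) values after removing the run effect, and dropped low genes. The annotation and the use of strand are not given in the sources used here. Each file held 12939 genes and 1 unnamed line, which was left out. There are no counts, so the depth is unknown and the number of replicates limits the precision.

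limma 3.58.1 (R 4.3.3) was fitted to all 8 libraries with group and, following the removed run effect, replicate number as a block (lmFit, eBayes, two-sided, Benjamini-Hochberg over all genes). The pairing comes from the replicate numbers of the labels. Because the correction makes deviations within a number cancel, their correlations (-1 to 0.951) are not independent evidence of pairing. The block leaves 3 residual degrees of freedom, of which values vary in 2 directions, plus 2.84 from other genes. Past threshold also needs a fold of 1.66 (CDH2 shRNA) or 1.5 (Cx43 shRNA and the direct comparison). Differences within a library had exact permutation tests without the replicate block (Python 3.11.15), adjusted over 8.

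Members, lists and tests were chosen with earlier results of these data known, and no list result is independent support. Named genes were the 10 members, list genes with an adjusted p under 0.05 in either knockdown (at most 4 a list, by size), 10 fixed genes, and the 5 genes most correlated with SKP2 and with CCNE2. A gene that this rule names is not reported here. CDK3, CDKN2A, CDKN2B and FBXO4 were not analysed here. Positions and lengths are from GENCODE v44. Alternatives were no block, other scalings, a filter, another pseudocount, a trend, fewer groups, counted residual directions, a length and GC correction (91.9% of genes) and leaving out each library.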

Additional observations from a re-analysis of the deposited data

Results flagged for a closer look

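CCNK, cyclin K, and RBX1, the RING subunit of SCF, drew attention because their differences from the scramble library of the same number had opposite signs in the knockdowns. Among these changes, that of CCNK with Cx43 shRNA passed the test and the others did not. CCNK was at 4.97 to 5.01 in scramble, 5.15 to 5.18 in CDH2 shRNA (0.18, adjusted p = 0.127) and 4.37 and 4.39 in Cx43 shRNA (-0.61, adjusted p = 0.041). The direct limma comparison of the knockdowns gave 0.79 for CCNK, with an adjusted p of 0.115. RBX1 was at 5.6 to 5.86 in scramble, 5.08 to 5.39 in CDH2 shRNA (-0.47, adjusted p = 0.057) and 5.77 and 5.87 in Cx43 shRNA (0.0865, adjusted p = 0.763), so that the Cx43 shRNA libraries overlapped scramble, each being just above the scramble library of its number. The direct comparison gave -0.56 for RBX1, with an adjusted p of 0.155, so neither difference passed the test.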

How the results depend on the processing

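CCNE2 and SKP2 stayed higher in both knockdowns under 17 of 17 alternatives, and were called in 11 with CDH2 shRNA and in 10 with Cx43 shRNA. These are not 17 separate checks. The fits with no block, a trend, the filter or counted residual directions left the estimates as they were. With CDH2 shRNA, the fits with only the groups compared and without either Cx43 shRNA replicate were the same fit, as were those without either library of number 3. Members higher (2 in each knockdown as reported) numbered 5 with CDH2 shRNA and 5 with Cx43 shRNA without the replicate block, and 0 and 4 with only the groups compared in the model. With Cx43 shRNA they numbered 0 with the 75% filter and 0 with residual degrees of freedom taken from the residuals. Leaving out each library gave 0 to 3 with CDH2 shRNA and 0 to 4 with Cx43 shRNA. Members lower with CDH2 shRNA numbered 1 without the block and 0 to 1 leaving out each library. Members past threshold (2 in each as reported) numbered 1 in each with the length and GC correction. With CDH2 shRNA they numbered 0 with only the groups compared, and with Cx43 shRNA 0 with the filter and 0 with residual degrees of freedom from the residuals. Leaving out each library gave 0 to 3 in each. In the direct comparison (0 as reported), members higher, lower and past threshold numbered 2, 1 and 2 without the block, 1, 0 and 1 with only the groups compared, and 0 to 1 each leaving out a library. Fewer libraries in the model leave fewer residual degrees of freedom, yet some of these fits gave lower adjusted p. For CCNE2 with CDH2 shRNA it was 0.000398 without CDH2 shRNA replicate 3 and 0.000694 without scramble replicate 2. The change was then 0.85 (SE 0.12) and 0.94 (SE 0.13), against 0.90 (SE 0.08) with all libraries. So these lower adjusted p came with larger SEs and do not mark a more precise change. Why they fell was not tested. The replicate block could change no sign, since deviations cancel within each number and the estimates are the same without it.

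CCNE2 minus CCNE1 passed by limma (0.71 and 0.95, adjusted p = 0.0208 and 0.0372) where the permutation tests could not. SKP2 minus CDKN1B with Cx43 shRNA ranged from -0.36 to 0.24 leaving out each library. Of 338 values of members against scramble under the alternatives, 322 kept their direction, 26 lost a call and 21 gained it; of 1258 values of other named genes, 1228, 198 and 80 did. These counts include the repeated fits and the estimates that could not change. No value whose direction turned passed the test (adjusted p of at least 0.433). With CDH2 shRNA, leaving out each library gave -0.0914 to 0.038 for CCND1, -0.12 to 0.108 for CDK4, -0.105 to 0.24 for CDKN1B, -0.109 to 0.0709 for CCND2, -0.031 to 0.34 for FOXM1, -0.0465 to 0.025 for CUL1, -0.0543 to 0.124 for FBXW7 and -0.27 to 0.107 for CCNB1. With Cx43 shRNA it gave -0.146 to 0.141 for CCND1, -0.287 to 0.115 for CDK6, -0.33 to 0.0686 for CCNE1, -0.33 to 0.18 for MKI67, -0.0307 to 0.293 for FOXM1, -0.0478 to 0.348 for CKS1B, -0.0949 to 0.0502 for SKP1, -0.0346 to 0.26 for FBXW7, -0.26 to 0.13 for E2F1 and -0.0421 to 0.274 for CCNB1. In the direct comparison it gave -0.174 to 0.113 for CCND1 and -0.228 to 0.0053 for CCND3. Quantile normalization turned CDK4 with CDH2 shRNA to -0.0482, CCNB1 with Cx43 shRNA to -0.0159 and CCND1 in the direct comparison to 0.0638. The length and GC correction turned FBXW7 with CDH2 shRNA to -0.11, CCND1 with Cx43 shRNA to 0.0021 and CCND3 in the direct comparison to 0.0051. With only the groups compared, CDK6, FOXM1, CKS1B and CCNB1 with Cx43 shRNA turned to 0.0194, -0.0157, -0.0478 and -0.0412. No paired permutation test was run, since 3 and 2 pairs cannot pass 0.05.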
